A study of Mus musculus with 14 samples.

Results

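Transcripts of the proteins of the cytosolic ribosome were examined in mouse tibialis anterior muscle, with and without follistatin. The genes were taken by symbol: names of the form Rpl or Rps with a number and at most one letter (a, or x for the small subunit), Rplp0 to Rplp2 and Rpsa, without Rpl3. This gave 75 of the 24359 genes used, 45 of the large subunit and 30 of the small subunit. Poly(A) RNA came from C57Bl/6 mice. The early set was taken at day 3 and held 3 control libraries and 4 with follistatin. The late set, which the series' design calls chronic, held 3 control libraries, of which 2 are from day 7 and 1 from day 14, and 4 with follistatin, 2 from each of these days. Strain and tissue were the same in every group. The route of follistatin, the treatment of the controls, the age and sex of the mice, and whether replicates were separate animals are not given in the sources used here, so the tests below measure the spread between these libraries only, which may be technical. Because each library was made from whole muscle, fewer cells of a type and less RNA per cell cannot be told apart.

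Each cytosolic ribosome is built from a small subunit, which reads the mRNA, and a large subunit, which joins amino acids into protein. Most of their proteins are present in equal numbers, and the subunits are assembled on ribosomal RNA in the nucleolus. Vertebrate ribosomal protein mRNAs begin with a run of pyrimidines, the 5′ terminal oligopyrimidine (TOP) tract, through which the growth regulator mTORC1 and the RNA-binding protein Larp1 set how actively they are translated. Follistatin is a secreted protein that binds myostatin and activins, which restrain muscle size, and muscle exposed to it becomes larger. The comparison asks whether the mRNAs of the ribosome's own parts differ in such muscle.

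Start regions were read from RefSeq for GRCm38.p6, the assembly behind mm10, from 250 bases before to 50 bases after each annotated start. Of the 75 genes, 56 matched, with 66 windows. Runs of at least 8 pyrimidines beginning with C were sought, with that first C within 25 bases of the start on either side. They were present in 36 of 66 windows (54.5%), against 16.4% of all 32851 windows. A run found this way need not begin at the first base of the transcript. The motif CCGGAAGT, in either orientation, was in 16.7% of the ribosomal protein windows and 3.89% of all windows. AAGATGGCG was in 7.58% against 1.40%, and TATAAA in 9.09% against 13.6%, both again on either strand. The windows with AAGATGGCG came from only 3 of the 56 genes, as Rpl35a was counted in several overlapping windows. Shown here are the 4 matched genes with the smallest p-values at days 7 and 14 (Rpl10, Rpsa, Rps12 and Rpl12) and the 4 with the lowest log2 fold changes there (Rpl22, Rps18, Rpl4 and Rps3), each from 40 bases before to 30 bases after the start, with capitals for the pyrimidine run. Rps27a, Rpl23a, Rpl29 and Rpl36 were not matched.
Rpl10 (chrX:74270776-74270845, forward strand): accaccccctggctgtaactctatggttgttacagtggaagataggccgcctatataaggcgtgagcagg
Rpsa (chr9:120127726-120127795, forward strand): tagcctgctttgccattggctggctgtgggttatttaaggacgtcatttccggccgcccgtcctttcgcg
Rps12 (chr10:23787180-23787249, reverse strand): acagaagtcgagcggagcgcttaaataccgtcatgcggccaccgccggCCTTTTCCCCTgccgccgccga
Rpl12 (chr2:32961672-32961741, forward strand): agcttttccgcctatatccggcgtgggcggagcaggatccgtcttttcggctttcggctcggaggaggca
Rpl22 (chr4:152325686-152325755, forward strand): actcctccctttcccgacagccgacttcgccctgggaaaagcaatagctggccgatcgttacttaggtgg
Rps18 (chr17:33955636-33955705, reverse strand): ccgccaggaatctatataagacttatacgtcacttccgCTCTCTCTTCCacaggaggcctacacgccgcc
Rpl4 (chr9:64173347-64173416, forward strand): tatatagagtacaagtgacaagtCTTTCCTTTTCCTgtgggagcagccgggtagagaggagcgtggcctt
Rps3 (chr7:99483680-99483749, reverse strand): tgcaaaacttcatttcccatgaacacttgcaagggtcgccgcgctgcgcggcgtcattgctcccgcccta
The run was found in 1 of the first 4 genes (Rps12) and in 2 of the last 4 (Rps18 and Rpl4). Leaving out Rpl26 and Rps27, whose means were under 20 FPKM, 32 genes had a run and 22 had a window and no run. Among the 32, the median log2 fold change at days 7 and 14 was 0.32, and among the 22 it was 0.35. At day 3 the medians were 0.13 and 0.14. These are descriptions of letters around annotated starts, and genes with and without the run had similar middle values.

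The values are FPKM, in which the fragments of a gene are divided by its transcript length and by the size of the library. Levels of different genes can thus be set side by side, but only with care where loci or exons are shared, as given below. Read numbers were not used here and the absolute depth is unknown. Fibre genes such as Acta1, Ckm and Mylpf together reached 105853 to 129085 FPKM at day 3, as the labelled tissue would show. In the late libraries the authors' table marks 31 genes as too deeply covered for an estimate, and 5 of the 10 fibre markers (Acta1, Myh4, Myh1, Tnnt3 and Atp2a1) are listed at 0 in all 7. Other fibre genes are listed at 0 in the late follistatin libraries only, where the fibre markers sum to 13077 to 20627 FPKM against 65398 to 72307 in the controls. The share of all FPKM held by ribosomal protein genes is therefore not comparable across groups, and levels are given here as FPKM. FPKM may carry the same limit, since how these fibre genes affected the scaling of other genes is not known. All FPKM summed to 364513 to 433552 in late follistatin libraries and to 485755 to 510584 in late controls. Over the ribosomal protein genes the late median log2 fold change was 0.33. It was 0.44 after median ratio rescaling and 0.23 after quantile normalization. None of the 75 genes is marked as too deeply covered in either set. All 75 lie in the mouse annotation where the authors' table places them, on 19 chromosomes, with 14 on chromosome 7. Exon bases are shared with another annotated gene in 21, for 15 of them mainly on the opposite strand. The strand setting of the libraries is not given in the sources used here, so reads of such partners cannot be told apart.

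The mean level over the 14 libraries ran from 3.76 FPKM for Rpl30 to 573 FPKM for Rplp1, a protein of the stalk that recruits translation factors. Rpl38, a large subunit protein known for its part in translating Hox mRNAs in the embryo, followed at 544 FPKM, and Rpl23a, which lies at the exit of the peptide tunnel, at 528 FPKM. The median gene stood at 211 FPKM in the large subunit and 302 FPKM in the small subunit. At the low end, Rpl30, Rpl26 (5.89 FPKM) and Rps27 (6.49 FPKM) were far below every other gene, of which the lowest were Rps15a at 26.7 and Rpl34 at 40.6 FPKM. The longest annotated coding transcript of Rps15a has 5179 bases, against a median of 914 over the ribosomal protein genes. Which length its FPKM was divided by is not given in the sources used here, so its level is uncertain.

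4 of these low genes share their locus in the authors' table with a second entry that carries nearly all the signal. Rpl26 (chr11:68901565-68904534, mm10) stands beside Gm15772, with a mean of 461 FPKM. For Rpl30 (chr15:34440505-34443276) the second entry is Gm12191 at 475 FPKM. Rps27 (chr3:90212666-90213648) is paired with Rps27rt at 500 FPKM, and Rpl34 (chr3:130726826-130730398) with Rpl34-ps1 at 414 FPKM. In each pair the entry named for the ribosomal protein held 0 to 16.6% of the summed FPKM, depending on the library, so its own value is uncertain. The mouse gene annotation places Rps27rt on chromosome 9 and Rpl34-ps1 on chromosome 6, away from the locus the authors' table gives them. The sums were 467 FPKM for Rpl26, 479 for Rpl30, 455 for Rpl34 and 506 for Rps27. If the reads of the second entries belong to these genes, all 4 are among the abundant ribosomal protein mRNAs, but this was not tested. Rpl26 shows how uncertain single values can be: it is listed at 0 in control replicate 1 and in all 4 follistatin libraries at day 3, and at 9.73 and 12.3 FPKM in the other controls. Its sum at day 3 was 293 ± 19.1 (SD, n = 3) in controls and 321 ± 14.7 (SD, n = 4) with follistatin. The summed entry had a log2 fold change of 0.13 where Rpl26 alone had -2.39, and neither passed limma's test (adjusted p = 0.414 and 0.203). In the late set the sums had log2 fold changes of 0.24 for Rpl26, 0.32 for Rpl30, 0.30 for Rpl34 and 0.06 for Rps27, with limma adjusted p from 0.255 to 0.848. The summing was chosen after these values were seen.

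Summed over the 45 large subunit genes, day 3 controls held 6780, 7492 and 7357 FPKM, and follistatin libraries 7148, 8370, 8066 and 7001 FPKM. The 30 small subunit genes summed to 5505, 6007 and 5914 FPKM in those controls and 5661, 6932, 6662 and 5611 FPKM with follistatin. Follistatin replicates 2 and 3 were above every control in both subunits, while replicates 1 and 4 lay within the control range. In the late set the large subunit sums were 11467 and 10721 FPKM in the day 7 controls and 12448 FPKM in the day 14 control. With follistatin they were 17422 and 13787 FPKM on the earlier day, then 11294 and 16640 FPKM on the later one. Small subunit sums were 8791, 8253 and 9427 FPKM in late controls, in the same order, and 13337, 10815, 8589 and 13521 FPKM with follistatin. 3 of the 4 late follistatin libraries were thus above every control in both subunits, and day 14 replicate 1 was inside the control range. These sums leave out the second entries at the loci of Rpl26, Rpl30, Rpl34 and Rps27, whose means were 461, 475, 414 and 500 FPKM.

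**Figure D1:**
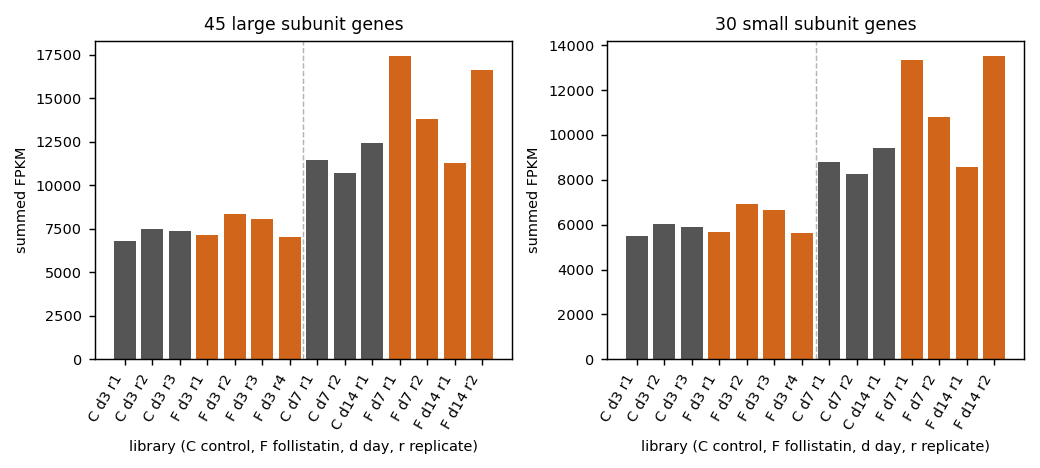
Summed FPKM of the 45 large subunit genes (left) and 30 small subunit genes (right), 1 bar per library, grey for control (C) and orange for follistatin (F), with d for day and r for replicate and a dashed line between the day 3 and the late libraries. Late follistatin libraries reach 17422 FPKM for the large subunit, and day 14 replicate 1 (11294 FPKM) sits among the controls. Second entries at the loci of Rpl26, Rpl30, Rpl34 and Rps27 are not in the sums.

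The small and large subunit sums, without those second entries, kept a narrow ratio. The small subunit sum divided by the large subunit sum was 0.806 ± 0.005 (SD, n = 3) in day 3 controls and 0.812 ± 0.018 (SD, n = 4) with follistatin. It was 0.765 ± 0.006 (SD, n = 3) in late controls and 0.781 ± 0.024 (SD, n = 4) in late follistatin libraries. At day 3 the follistatin libraries, from 0.792 to 0.828, lay on both sides of the controls. In the late set 2 of the 4, at 0.784 and 0.813, were above all 3 controls (0.757 to 0.770), and the other 2 were within their range.

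At day 3 no ribosomal protein gene passed the test with follistatin: 0 of 75 were called higher and 0 lower at an adjusted p under 0.05 (limma on log2(FPKM + 1), Benjamini-Hochberg over 11268 genes), where 0.923% of all genes were called higher and 0.568% lower. Before adjustment, 13 had a p under 0.05 and higher values and 2 lower ones, against 8.72% and 6.46% of all genes. The log2 fold change was above 0 in 58 of 75, against 52.6% of all genes. Its median was 0.13 for the large and 0.11 for the small subunit, against 0.01 over all genes tested. All 4 follistatin libraries lay above all 3 controls for 11 genes (8.31% of all genes) and below them for 1 (6.8%), which was Rpl34. The authors' deposited table marks 0 of the 75 as significantly higher and 0 as lower at day 3, where it marks 3.06% and 3.19% of all genes.

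The day 3 genes nearest the threshold were of the large subunit. Rpl15, a protein of the core of the large subunit, had 34.5, 36.4 and 34.4 FPKM in controls and 40.6, 48.5, 43.0 and 43.3 FPKM with follistatin. The groups did not overlap, and the log2 fold change was 0.31 (SE 0.08, limma adjusted p = 0.102). Rpl15 shares 105 exon bases with Nkiras1 on the opposite strand. Rpl5, which with Rpl11 carries the 5S ribosomal RNA and can bind the p53 regulator Mdm2, had 58.4, 62.3 and 68.1 FPKM in controls and 75.7, 77.6, 72.5 and 80.7 FPKM with follistatin. These groups too were separate, with a log2 fold change of 0.28 (SE 0.07, limma adjusted p = 0.123). In the small subunit the smallest p was that of Rps12, a protein of the head of the subunit, with 296, 308 and 324 FPKM in controls and 332, 425, 411 and 357 FPKM with follistatin. Its log2 fold change was 0.30 (SE 0.09, limma adjusted p = 0.191). Stalk proteins lay on the other side of 0 at day 3, with log2 fold changes of -0.05 for Rplp0, -0.18 for Rplp1 and -0.12 for Rplp2, and in all 3 the groups overlapped.

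The day 3 values rested on which libraries were taken. Leaving out the 3 genes with means under 20 FPKM, 60 of the other 72 were above all controls in follistatin replicate 2 and 57 in replicate 3, but 19 in replicate 1 and 17 in replicate 4. Of all genes, 37.1%, 26.2%, 33.3% and 26.7% were above all controls in those libraries. Without replicate 2, 50 of 75 and not 58 were above 0, and 6 and not 13 were higher at an unadjusted p under 0.05. Without control replicate 1, which had the lowest sums, that count was 5, and Rpl26, the entry listed at 0 there, was called lower (log2 fold change -3.58, limma adjusted p = 0.00012). How such counts changed over all genes was not taken, so the drops are not read as particular to ribosomal protein genes.

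In the late set the log2 fold change was above 0 in 74 of the 74 ribosomal protein genes tested (71 of 74 after quantile normalization), against 39.2% of all genes, yet no single gene passed the test. 0 of 74 were called higher and 0 lower (limma, adjusted p under 0.05 over 11047 genes), where 2.24% of all genes were called higher and 3.27% lower. The count called higher was 3 with a robust variance model, 5 after quantile normalization and 14 when all 14 libraries entered 1 fit. Shares of all genes called under these alternatives were not taken, so the counts are not read as particular to ribosomal protein genes. Rpl30 was not tested because its mean was under 1 FPKM. Before adjustment, 20 had a p under 0.05 with higher values (12 large and 8 small subunit genes) and 0 with lower ones, against 8.99% and 19.3% of all genes. The median log2 fold change was 0.31 in the large subunit (25th to 75th percentile 0.22 to 0.41) and 0.34 in the small subunit (0.25 to 0.42), against -0.09 over all genes. As folds, the medians are 1.24 and 1.26. In 11 genes the 4 follistatin libraries all lay above the 3 controls (8.96% of all genes), and in 0 below them (21.5%). They were Rpl5, Rpl10, Rpl21, Rpl23a, Rpl35a, Rpl39, Rps12, Rps20, Rps26, Rps27a and Rpsa.

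The authors' own test gave a different count. Their deposited table for the late set marks 11 of 74 as significantly higher and 0 as lower, against 6.64% and 11.2% of the 12664 genes it tested. They include Rpl10, Rpl12, Rpl13, Rpl21, Rpl27a and Rpl35a of the large subunit and Rps4x, Rps12, Rps27a and Rpsa of the small subunit. For Rpsa the authors' deposited table gives a log2 fold change of 0.76 and a q-value of 0.000894.

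**Figure D2:**
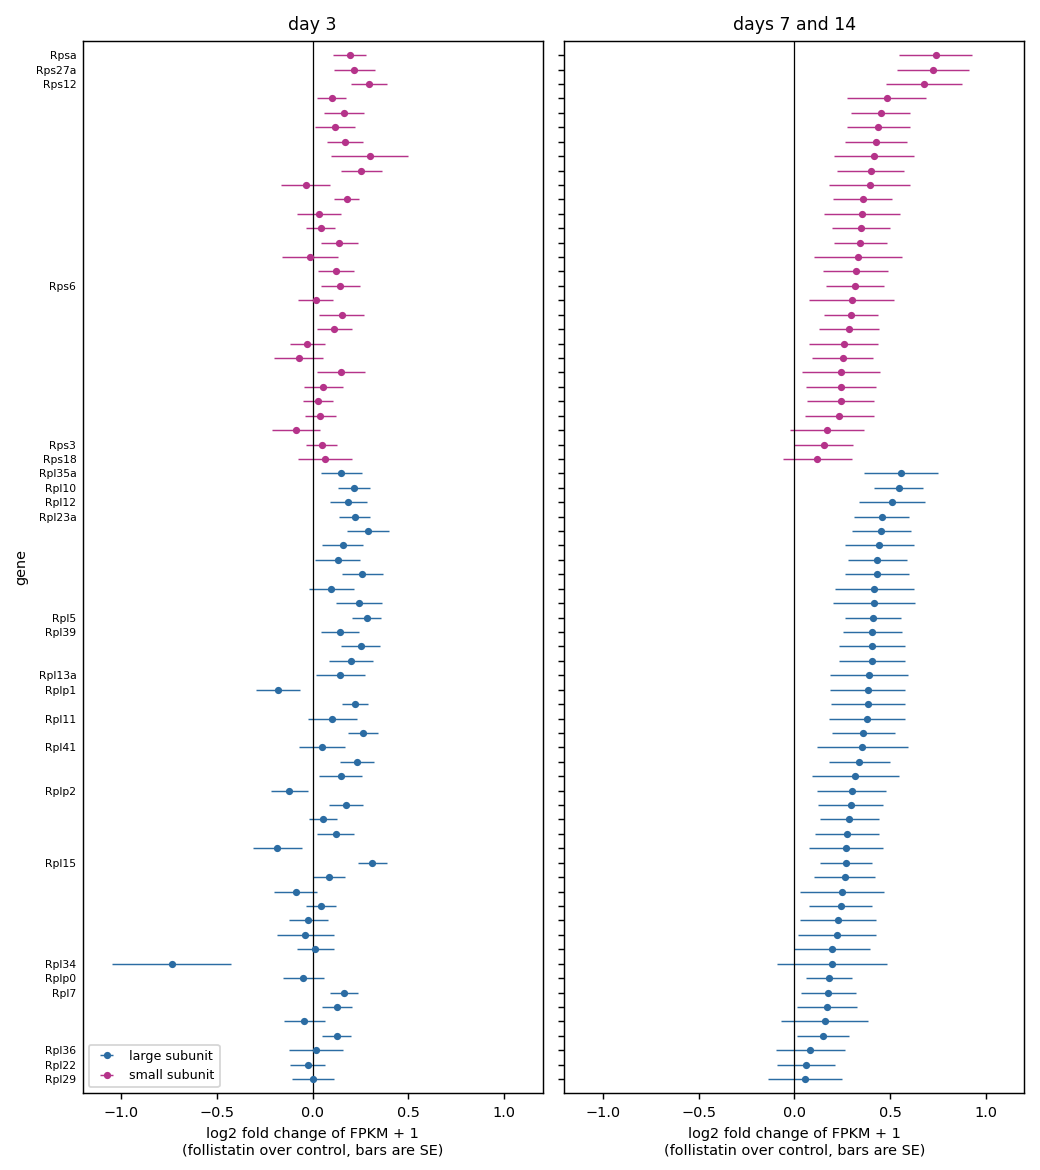
Log2 fold change of FPKM + 1, follistatin over control, at day 3 (left) and at days 7 and 14 (right) for the 72 genes averaging 20 FPKM or more, 1 row per gene, with names for genes described in the text, bars for the standard error, blue for the large subunit and magenta for the small subunit. Day 3 points lie on both sides of 0 (57 of 72 above), and the late points lie to the right of 0 (74 of 74 genes tested on the deposited scale, 71 of 74 after quantile normalization).

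4 genes came closest to the threshold in the late set. Rpl10, which joins the large subunit late in its assembly, had 415 and 399 FPKM in day 7 controls and 450 FPKM in the day 14 control. With follistatin its day 7 values were 638 and 587 FPKM, and its day 14 values 525 and 721 FPKM. The lowest follistatin value exceeded the highest control, and means were 421 ± 26.2 (SD, n = 3) and 618 ± 83.1 (SD, n = 4), a fold of 1.47 and a log2 fold change of 0.54 (SE 0.13, limma adjusted p = 0.0521). Rpsa, a small subunit protein also known as the laminin receptor, had 170, 175 and 211 FPKM in controls and 383, 283, 231 and 358 FPKM with follistatin, in the same order of libraries. All follistatin values were higher, with a fold of 1.70 and a log2 fold change of 0.74 (SE 0.19, limma adjusted p = 0.0614).

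Rps27a is made as a fusion of ubiquitin and a small subunit protein. Its controls were close together at 265, 258 and 271 FPKM, and its follistatin libraries had 448, 398, 338 and 609 FPKM. None of these overlapped, the fold was 1.69 and the log2 fold change 0.72 (SE 0.19, limma adjusted p = 0.0644). Rps12 had 415, 425 and 488 FPKM in controls and 759, 664, 520 and 953 FPKM with follistatin, a fold of 1.64 and a log2 fold change of 0.68 (SE 0.20, limma adjusted p = 0.0815). In each of the 4 genes, day 14 replicate 1 was the lowest follistatin library and the day 14 library the highest control. Rpl10 lies at chrX:74270812-74273135 and Rpsa at chr9:120127689-120132369, both on the forward strand. Rps27a lies at chr11:29545846-29548109 and Rps12 at chr10:23785183-23787275, both on the reverse strand (GENCODE gene models on GRCm38). Rps27a shares 160 exon bases with Clhc1 on the opposite strand, and the other 3 share none with another gene.

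**Figure D3:**
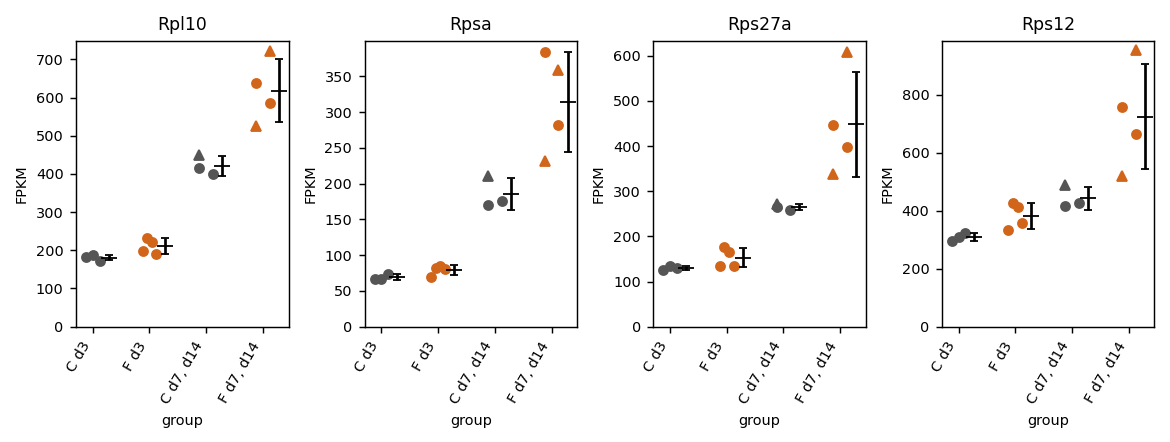
FPKM of Rpl10, Rpsa, Rps27a and Rps12 in each library, grey for control (C) and orange for follistatin (F), circles for days 3 and 7 and triangles for day 14, with a black dash and bar beside each group for its mean and SD (n = 3 controls, n = 4 follistatin). Late follistatin libraries lie above late controls in all 4 genes, and late controls lie above day 3 controls.

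Other large subunit genes with high late values also had their lowest follistatin value in day 14 replicate 1. Rpl35a, a protein tied to the inherited anaemia named after Diamond and Blackfan, had 383, 334 and 386 FPKM in controls and 620, 480, 408 and 698 FPKM with follistatin (log2 fold change 0.56, SE 0.19, limma adjusted p = 0.112). Rpl12, a protein at the base of the stalk, had 221, 209 and 239 FPKM against 396, 337, 238 and 318 FPKM, and there day 14 replicate 1 was within the controls. Rpl23a had 610, 556 and 634 FPKM against 928, 809, 658 and 923 FPKM, without overlap (log2 fold change 0.46, SE 0.14, limma adjusted p = 0.0936). Rpl23a shares 310 exon bases with Tlcd1 on the opposite strand, and Rpl12 shares 56 with Lrsam1, also on the opposite strand.

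Among the stalk proteins, Rplp0 anchors the pairs of Rplp1 and Rplp2 to the large subunit. Late log2 fold changes were 0.18 for Rplp0, 0.38 for Rplp1 and 0.30 for Rplp2, with limma adjusted p of 0.353, 0.236 and 0.305. Rplp1 had 539, 517 and 657 FPKM in controls and 957, 625, 585 and 860 FPKM with follistatin, so the groups overlapped. Of the pair that carries the 5S ribosomal RNA, Rpl5 had 139, 134 and 141 FPKM in controls and 212, 202, 144 and 186 FPKM with follistatin, without overlap (log2 fold change 0.41, SE 0.15, limma adjusted p = 0.119). Rpl11 had 336, 315 and 335 FPKM against 572, 439, 304 and 438 FPKM, with overlap and a log2 fold change of 0.38. Rpl5 shares 953 exon bases with Fam69a on the opposite strand.

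Genes of other known roles lay in the same range. Rps6, whose protein is phosphorylated by S6 kinase downstream of mTORC1, had 188, 180 and 211 FPKM in late controls and 257, 231, 193 and 289 FPKM with follistatin (log2 fold change 0.32, SE 0.15, limma adjusted p = 0.213). Rpl13a, which can leave the ribosome to silence inflammatory mRNAs, had a log2 fold change of 0.39, and the groups overlapped. Rpl13a shares 621 exon bases with Gm45713 on the same strand, so its value is uncertain. The very small proteins Rpl39, which lines the exit tunnel, and Rpl41 had log2 fold changes of 0.41 and 0.36. Only Rpl39 of these 4 had separate groups, with 400, 351 and 441 FPKM in controls and 499, 505, 452 and 663 FPKM with follistatin.

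The smallest late differences were in Rpl29, Rpl22, Rpl36 and Rpl4 of the large subunit and in Rps18, Rps3 and Rps16 of the small subunit. Rpl22, which also binds RNA outside the ribosome, had 48.2, 43.3 and 54.4 FPKM in controls and 54.1, 47.0, 41.9 and 61.0 FPKM with follistatin. The groups fully overlapped, with a log2 fold change of 0.06 (SE 0.15). Rpl29 had a log2 fold change of 0.05 (SE 0.19) and Rpl36 of 0.08 (SE 0.18). Rps18 had 0.12 (SE 0.18), and Rps3, a protein at the mRNA entry of the small subunit that also takes part in DNA repair, 0.15 (SE 0.16).

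The 4 late follistatin libraries differed from each other more than the controls did. Of the 72 genes averaging 20 FPKM or more, 71 were above all late controls in day 7 replicate 1, 59 in day 7 replicate 2, 69 in day 14 replicate 2 and 11 in day 14 replicate 1, where 27.7%, 31.2%, 32.4% and 24.0% of all genes were. That last library was the lowest of the 4 in 71 of 72 genes and below the control mean in 49. In 58 of the 72 genes the other 3 follistatin libraries were all above all controls, as in 12.4% of all genes. Without day 14 replicate 1 the median log2 fold change over the genes tested was 0.44 and not 0.33, 58 genes were higher at an unadjusted p under 0.05 (9.38% of all genes), and 4 were called higher by limma (1.11%), among them Rpl23, Rps4x and Rpsa. Summed mitochondrial ribosomal protein FPKM was lowest among the follistatin libraries in that library too, at 3553 against 3586 to 3839 in controls and 3858 to 4746 in the other 3. Its median difference from the controls on the log2 scale was -0.07 over the 72 genes and -0.11 over all genes tested. Day 7 replicate 1 and day 14 replicate 2 had similar medians over all genes (-0.10 and -0.12) but 0.59 and 0.52 over the 72, and day 7 replicate 2 had -0.02 and 0.26. The count of 20 at an unadjusted p under 0.05 was 7 without control day 7 replicate 1, 4 without control day 7 replicate 2, 11 without follistatin day 7 replicate 1 and 12 without follistatin day 14 replicate 2. Shares of all genes beside these counts were not taken, so the drop is not read as particular to ribosomal protein genes. The day 7 libraries alone gave a median log2 fold change of 0.48, with 0 genes called (0.173% of all genes were called higher) and 41 higher at an unadjusted p under 0.05 (5.86%).

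**Figure D4:**
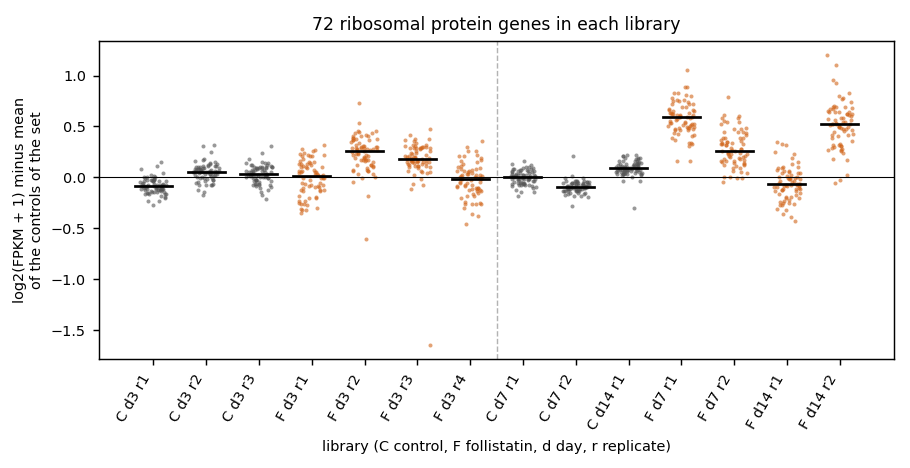
Difference of log2(FPKM + 1) from the mean of the controls of the same set, 1 point per gene for 72 genes in each library, grey for control (C) and orange for follistatin (F), with a black line at the median and a dashed line between the sets. Day 3 follistatin replicates 2 and 3, and the late follistatin libraries other than day 14 replicate 1, lie above their controls.

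The difference between the late and the day 3 effect was tested over all 14 libraries. 0 of 75 ribosomal protein genes were called (limma interaction, adjusted p under 0.05, where 0.0884% of 11306 genes were called). The difference was above 0 in 73 of 75, against 35.8% of all genes. At an unadjusted p under 0.05, 4 were positive (2.99% of all genes): Rpl26, whose day 3 values are uncertain as given above, Rpsa (difference 0.54, limma adjusted p = 0.285), Rps27a (0.50, 0.326) and Rplp1 (0.56, 0.308). Larger late than early effects were thus not shown for any single gene. Rpl15 (-0.04) and Rpl7 (0.01), both of the large subunit, were among the genes with the smallest difference, with day 3 and late fold changes that were alike.

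Control muscle itself held different levels in the 2 sets. Late controls over day 3 controls had a median ratio of 1.66 over the 72 genes, 1.82 in the large and 1.58 in the small subunit, against 0.942 over 11335 genes averaging 1 FPKM or more. The ratio was above 1 in 62 and above 2 in 18. Rps6 had the highest, 3.98, going from 52.3, 45.8 and 47.2 FPKM to 188, 180 and 211 FPKM. Rpl15 (2.84), Rpsa (2.69) and Rpl41 (2.55) came next. Rplp2 went the other way, from 361, 394 and 421 FPKM to 299, 259 and 293 FPKM, a ratio of 0.723. Rpl34 had the lowest ratio, 0.674, and its value is uncertain as given above. Day and set were not crossed in the design, and the late set differs in its fibre genes listed at 0, so day and set cannot be told apart and these ratios are given with no test. Across the 72 genes the log2 ratio had a Pearson r of -0.08 with log2 transcript length and of 0.34 with the late log2 fold change, both only descriptions, and the latter pair share the late control libraries.

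**Figure D5:**
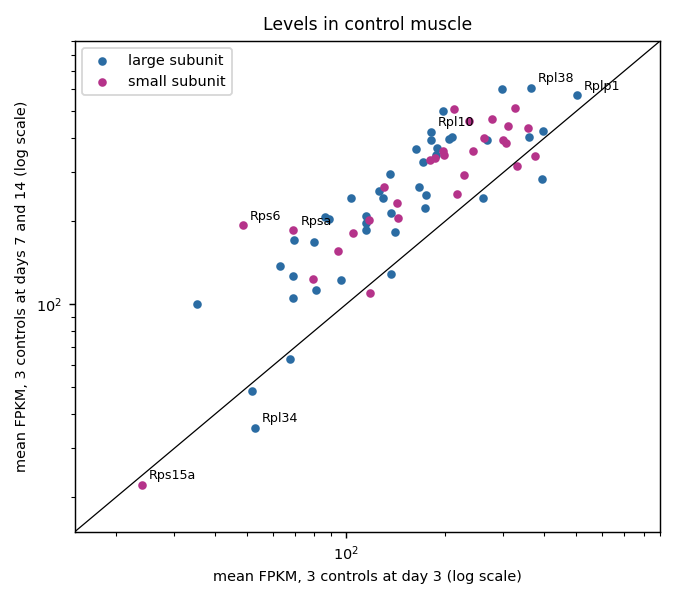
Mean FPKM of 72 ribosomal protein genes in 3 late controls (vertical) against 3 day 3 controls (horizontal), both on log scales, blue for the large and magenta for the small subunit, with the line of equal levels. Most genes (62 of 72) lie above the line, Rps6 farthest (193 against 48.4 FPKM), and Rplp2 and Rpl34 are below it.

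Ribosomal protein genes outside the symbol rule included 2 that rose. Of 10 tested in the late set, 2 were called higher and 0 lower (2.24% and 3.27% of all genes), and at day 3 none was called. Rpl36al, a gene related to Rpl36a that also encodes a large subunit protein, had 256, 241 and 296 FPKM in late controls and 562, 459, 555 and 874 FPKM with follistatin. No value overlapped, and here day 14 replicate 1 was as high as day 7 replicate 1 (log2 fold change 1.17, SE 0.21, limma adjusted p = 0.0256). Rpl36al shares 332 exon bases with Gm49383 on the same strand, so its value is uncertain. Rpl22l1, a paralogue of Rpl22, had 91.8, 76.2 and 78.7 FPKM in controls and 140, 166, 104 and 167 FPKM with follistatin, without overlap (log2 fold change 0.78, SE 0.18, limma adjusted p = 0.0480). Rpl22l1 shares 159 exon bases with Gm33051 on the opposite strand. Rpl22 itself had a late log2 fold change of 0.06. The Rpl36al call ended without any 1 of the 3 controls or without follistatin day 14 replicate 1 (limma adjusted p up to 0.134). The Rpl22l1 call ended without any 1 library other than follistatin day 14 replicate 1 (up to 0.162). Rpl3 and its muscle form Rpl3l, which were left out of the 75, had late log2 fold changes of 0.65 and -0.17, and neither passed the test.

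Other mRNAs known to carry a TOP tract, most of them translation factors, were not called in 1 direction: 2 of 17 were called higher and 1 lower in the late set (2.24% and 3.27% of all genes), with a median of 0.08, and 1 was called higher at day 3 (0.923%). Pabpc1, which binds poly(A) tails, rose at day 3 from 38.5 ± 2.91 to 63.6 ± 5.73 FPKM (SD, n = 3 and 4, log2 fold change 0.71, limma adjusted p = 0.0110) and late from 46.0 ± 3.79 to 80.8 ± 7.44 FPKM (0.80, 0.0129). Eef1g, part of an elongation factor complex, rose late from 332 ± 20.2 to 546 ± 71.4 FPKM (limma adjusted p = 0.0256), and the initiation factor Eif4b fell from 75.5 ± 5.13 to 51.5 ± 2.62 FPKM (limma adjusted p = 0.0265). In ribosome biogenesis, 1 of 45 genes was called higher late, a share like the 2.24% of all genes. It was Bysl, which matures the small subunit (7.19 ± 0.284 to 10.2 ± 1.09 FPKM, limma adjusted p = 0.0465). None was called at day 3, and the medians were 0.14 late and 0.12 at day 3. The Pabpc1 calls ended without control replicate 1 or 2 at day 3 (limma adjusted p up to 0.0569) and without control day 7 replicate 1 or the day 14 control late (up to 0.0885). Those of Eef1g and Eif4b ended without any 1 control (up to 0.148 in both), and that of Eif4b also without follistatin day 14 replicate 1. Bysl was called only with all libraries or without follistatin day 7 replicate 1 (otherwise up to 0.198). No carrier or chaperone of ribosomal proteins (7 genes), no regulator of their translation (14 genes) and no proliferation gene (7 tested at day 3, 8 late) was called. The smallest limma adjusted p of each of these lists were 0.141 (Heatr3), 0.251 (Cnbp) and 0.0731 (Mcm2) at day 3, and 0.234 (Bccip), 0.0557 (Tsc1) and 0.0544 (Rrm2) late, in that order of lists. In the late set, 2 of 7 carriers or chaperones were above 0 (median log2 fold change -0.10) and 2 of 14 regulators (-0.23). Proliferation genes were above 0 in 8 of 8 (0.27), against 39.2% of all genes. Day 3 counts were 5 of 7 (0.16), 9 of 14 (0.05) and 6 of 7 (0.17), against 52.6% of all genes. The 19 listed proliferation genes summed late to 36.9 to 39.7 FPKM in controls and 40.3 to 59.95 FPKM with follistatin, without overlap.

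Mitochondrial ribosomal protein genes, which serve the separate ribosome inside mitochondria, were compared as the most like group. Of 77, none was called at day 3 and 2 were called higher late (Mrps2, limma adjusted p = 0.0276, and Mrpl17, 0.0473), a share close to the 2.24% of all genes. Their median log2 fold change was 0.04 at day 3 and 0.16 late, with 51 and 65 of 77 above 0, against 52.6% and 39.2% of all genes. Both late calls ended without any 1 of the 3 controls, without follistatin day 7 replicate 2 or without follistatin day 14 replicate 1, and that of Mrpl17 also without follistatin day 14 replicate 2 (limma adjusted p up to 0.148 and 0.184).

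Markers of other cells differed between the groups, and their part in the ribosomal protein values was not tested. In the late set, 1 of 11 endothelial markers was above 0 (Tek was called lower, limma adjusted p = 0.0410, a call that ended without any 1 control, follistatin day 7 replicate 1 or day 14 replicate 1), and their sums were 202 to 261 FPKM in controls and 114 to 190 with follistatin. Smooth muscle and pericyte markers had 0 of 9 above 0 (205 to 261 against 76.4 to 164), and Schwann cell markers 0 of 5 (42.8 to 95.0 against at most 36.9). Macrophage markers were above 0 in 8 of 9 (22.5 to 51.9 against 37.0 to 98.1), with none called. Fibroblast markers had 2 of 9 above 0 (514 to 899 against 484 to 787), satellite cell and myoblast markers 4 of 6 (49.1 to 54.8 against 45.8 to 51.0), adipocyte markers 0 of 4 (13.8 to 32.1 against 4.77 to 36.1) and red blood cell markers 1 of 6 (82.5 to 145 against 59.0 to 92.7). T, B and NK cell markers (1.00 to 3.12 against 2.18 to 9.78) and neutrophil markers (2.10 to 2.88 against 2.49 to 11.3, with Ly6g listed at 0) were near 0 in most libraries. At day 3 no marker was called, endothelial markers were above 0 in 0 of 11 (199 to 216 against 167 to 191), and smooth muscle and pericyte markers in 2 of 9 (310 to 339 against 246 to 309). Day 3 neutrophil markers were above 0 in 3 of 3 tested. They summed to 2.01 to 3.63 FPKM in controls, to 6.19 and 15.7 FPKM in follistatin replicates 2 and 3, which had the higher ribosomal protein sums, and to 3.14 and 4.30 FPKM in replicates 1 and 4. In the late follistatin libraries neutrophil markers summed to 3.42 and 3.22 FPKM at day 7 and to 2.49 and 11.3 FPKM at day 14. The ribosomal protein sum was highest there in day 7 replicate 1 and lowest in day 14 replicate 1. No link between these markers and the ribosomal protein values was tested.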

How the data were processed

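Poly(A) RNA of tibialis anterior muscle was sequenced in 14 libraries made with an Illumina TruSeq kit, per the labels. The authors' reads were processed with TopHat and Cuffdiff on mm10, per the submitters' processing notes; versions, annotation, strand setting and counting mode are not given in the sources used here. The deposited FPKM were used as they stand. The authors' deposited tables also hold log2 fold changes, a test score (Cuffdiff's statistic), p-values and q-values, and mark genes with too many reads (4 at day 3, 31 late), which were left out of the tests. Each file lists 24386 rows, of which 27 with symbols turned into dates were dropped. Splitting of reads between entries at 1 locus would lower single FPKM values, but how reads were divided is not given in the sources used here. Small RNA genes aside, 13 of the 75 genes share their locus with another entry. Sums were formed only for the 4 with exactly 1 other entry, of higher mean FPKM. Splitting in the rest was not examined.

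Each set was fitted with limma 3.58.1 in R 4.3.3 (two-sided; lmFit, then eBayes with trend). Values were log2(FPKM + 1) of genes averaging 1 FPKM or more in the set, with Benjamini-Hochberg adjustment over all genes tested and a call at an adjusted p under 0.05. A fold change on this scale understates that of low genes. The late minus day 3 difference was an interaction over all 14 libraries. On simulated data of the same size, limma recovered 97.0% of genes changed by 1 on the log2 scale at day 3 and 77.8% late. Smaller changes were not simulated, and noise was drawn separately for each gene. The median changes of the ribosomal protein genes were smaller, so these rates do not say how often such changes would be called. The absolute depth is unknown: steps between low values gave day 3 depths of 0.685 to 1.27 relative to control replicate 1, with 79.2% to 83.5% of values on whole-read steps, and were not clear enough late (52.9% to 62.8%) to be read as whole reads.

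The ribosomal protein genes and the lists (ribosomal protein genes outside the symbol rule, other TOP mRNAs, ribosome biogenesis, carriers, translation regulators, proliferation, cell type markers) were chosen with earlier results of these data known. Named were 13 ribosomal protein genes chosen by role, per set and subunit the 4 highest and 4 lowest log2 fold changes, the 3 highest and 3 lowest levels, and the 3 most positive and 3 most negative differences between sets. Of the other lists, called genes were named, at most 3 a list and set, or examples with the smallest p. Genes listed because their groups did not overlap, because the authors marked them, because an alternative called them or because they share a locus were named after their values were seen. Some genes these rules pick are not reported here. Start windows came from RefSeq (GRCm38.p6) and positions from GENCODE M21. Alternatives were another pseudocount, filter, scaling, variance model and set of libraries, a replicate block, and summing the entries at 1 locus.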

Additional observations from a re-analysis of the deposited data

Results flagged for a closer look

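Of 80 groups of 4 follistatin libraries examined (37 named genes, both subunit sums and their ratio, in each set), 3 held a library whose gap to the next, divided by the range of the group, was above 0.829. Chance flags about 1 in 20 groups. Rps27 was 69.4 FPKM in follistatin day 7 replicate 1, where the other late follistatin libraries had 0.501, 0.884 and 0.652 FPKM. The entry at the same locus in the authors' table, Rps27rt, had 520 FPKM in that library, and the pair summed to 589 FPKM there and to 489, 366 and 633 FPKM in the other 3.

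Rps3 was 92.0 FPKM in follistatin day 14 replicate 1, against 136, 134 and 132 FPKM in the other 3. Rps15a was 20.9 FPKM in the same library, against 32.3, 33.0 and 33.7 FPKM. Controls of the late set had 112, 104 and 113 FPKM for Rps3 and 24.1, 20.9 and 21.6 FPKM for Rps15a. In this library 71 of 72 ribosomal protein genes were lowest among the 4.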

How the results depend on the processing

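The direction of the medians of both subunits held under every alternative run. Leaving out 1 library each, the late median log2 fold change ran from 0.23 to 0.43 for the large subunit and from 0.26 to 0.45 for the small subunit, and the day 3 medians from 0.07 to 0.18 and from 0.05 to 0.14. The number of ribosomal protein genes called higher late, 0 as reported, was 1 with a pseudocount of 0.1 and with median ratio rescaling, 3 with a mean of at least 5 FPKM, with a robust variance model and without small RNA genes, 5 after quantile normalization, and 14 with all 14 libraries in 1 fit. Leaving out 1 library gave 0 to 4, the 4 without follistatin day 14 replicate 1. Shares of all genes called were taken only without that library (1.11%) and for the day 7 libraries alone. The other counts are thus not read as particular to ribosomal protein genes. At day 3 the number called lower was 0 to 1 when 1 library was left out (Rpl26 without control replicate 1), and 0 in the other alternatives. It stayed at 0 late with no filter, with genes of too many reads kept, with day as a covariate, with the day 7 libraries alone and with the entries at 1 locus summed. With a replicate block by day and number, over the libraries that have a partner, 0 were called in either set, 7 were higher late at an unadjusted p under 0.05, and the medians were 0.27 and 0.26 late and 0.18 and 0.14 at day 3. Same-numbered libraries shared only a number: their deviations correlated at -0.06 to -0.03 at day 3 and 0.02 to 0.11 late. With the block the late calls of Rpl36al and Rpl22l1 were lost (limma adjusted p = 0.0722 and 0.138, log2 fold changes 0.99 and 0.70), as were all other calls named: Pabpc1 (0.130 at day 3, 0.0763 late), Eef1g (0.122), Eif4b (0.109), Bysl (0.133), Mrps2 (0.123), Mrpl17 (0.158) and Tek (0.108). The block leaves out libraries without a partner and fits a term for each pair, so less information on spread remains and calls are harder to reach. Shares of all genes under the block were not taken. Loss of calls there therefore does not show that the pairing mattered. The cause of these changes between alternatives was not tested.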
